A study of Arabidopsis thaliana with 12 samples.

Results

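Class III peroxidases are haem enzymes that plants secrete into the cell wall and the vacuole. They use hydrogen peroxide to oxidise phenolic compounds, which cross-links wall polymers and couples lignin precursors, and under other conditions they release reactive oxygen species themselves. The family is large in Arabidopsis, many of its genes sit beside a close relative, and members are known from root hairs, lignifying vessels, growing walls and the response to wounding and pathogens. A list of 60 loci of the family was taken, of which 45 have a probe set that the array's annotation assigns to that gene alone. Another 6 lie on probe sets shared by neighbouring family genes and 9 have no probe set named in the annotation used here. The 45 measured genes are described below, out of 13356 genes with such a probe set.

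Leaf RNA was hybridised to 12 Affymetrix arrays, 1 array per biological sample. The samples were atg5 plants after 48 h of submergence, Col wild-type plants (col) after 48 h of submergence, atg5 control plants and col control plants, with 3 biological replicates in each group. The atg5 plants carry a mutation in ATG5, which is needed to form autophagosomes, and the labels give no allele or line. All plants were 28 days old and grown with 12 h of light and 12 h of darkness, submerged plants were kept whole under 10 cm of water in the same light cycle, and the controls were sampled at 0 h, so submergence and time of harvest cannot be told apart. ATG5 itself was not analysed here, because no probe set is named for it.

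Values are log2 probe set signals as deposited, and every array shares the same lowest value of 2.20, called the floor. A value within 0.05 of the floor gives only an upper limit, so a gene at the floor can be low or absent. Differences are submerged minus control or atg5 minus col on the log2 scale, with the standard error (SE) of a limma model fitted to all 13356 genes. The SE pools the spread of all 4 groups, so groups at the floor, or at a probe set's own lowest value, lower it. The words rose and fell are used where a gene's adjusted p (limma, Benjamini-Hochberg over all genes) was under 0.05. Signals of different probe sets are not on a common scale, so no gene's level is set against another's. Sums over marker genes, given below, are compared between groups and weigh mostly the brightest probe sets. Pearson's r of the log2 signals was 0.985 to 0.996 between arrays of a group, and 0.799 to 0.875 between a submerged and a control array.

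Some markers of leaf cell types changed with submergence as well. Of 7 leaf mesophyll markers, 3 were measured (RCA, LHCB4.1 and SBPASE). Of these, 2 fell in atg5 and 3 in col, and their summed linear signal was 23600 to 25300 in submerged atg5 against 45500 to 47700 in control atg5, and 12200 to 23300 in submerged col against 46900 to 50800 in control col. The 2 measured guard cell markers of 4 summed to 60.9 to 110 in submerged atg5 against 280 to 417 in control atg5, and to 64.6 to 338 in submerged col against 486 to 634 in control col. One of them, AT1G22690, fell by 2.67 in atg5 (adjusted p = 0.00722) and also fell in col (adjusted p = 0.029). The other, FMA, differed by 0.00 in atg5 (adjusted p = 1.0) and by -0.22 in col (adjusted p = 0.781). The phloem marker SWEET11, measured alone of 3, lay at 3650 to 5750 in submerged atg5 against 4790 to 6240 in control atg5, and at 4060 to 6400 in submerged col against 2430 to 3380 in control col. Of 5 root markers, PYK10 and EXPA7 were measured and lay at or near the floor on every array, with sums of 9.21 to 9.69. No xylem or epidermis marker of the lists used was measured. The 3' minus 5' signal of the GAPDH control probe sets averaged 2.85 on submerged and 2.68 on control arrays, and the poly-A spikes averaged 5.70 and 5.20. The part of these shifts in the results below was not tested, and in leaf RNA fewer cells of a type and less RNA per cell cannot be told apart.

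Submergence split the family into genes that rose steeply, a smaller set that fell, and a majority that did not pass the test. Submergence changed 40.3% of all 13356 genes in atg5 and 42.5% in col. In atg5, 10 of the 45 peroxidase genes rose (22.2%, beside 19.1% of all genes) and 6 fell (13.3%, beside 21.2%). In col, 11 rose (24.4%, beside 20.4% of all genes) and 7 fell (15.6%, beside 22.1%). The 10 risen and the 6 fallen genes of atg5 were all among those of col, and no gene rose in one genotype and fell in the other. Another 12 genes passed in neither genotype, and 15 lay at the floor on all 12 arrays, which is 33.3% of the measured family, beside 20% of all genes (2666 of 13356). The median difference over the 45 genes was 0.00 in both genotypes, as it was over all genes. The shares of risen genes lie near those of all genes, the shares of fallen genes lie below them and the share at the floor lies above, and these differences in share were not tested. Genes at the floor can hardly pass, so the risen and fallen shares depend on the share at the floor. Off the floor were 30 of the 45 genes and 10690 of all genes, and shares among these were not compared. Centring each array on its median adds 0.26 to every difference in atg5 and 0.19 in col, which lifts the risen counts to 33 in atg5 and 28 in col, with 15 and 12 floor genes among them. No difference that had passed changed its sign under that scaling or under quantile normalization.

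**Figure D1:**
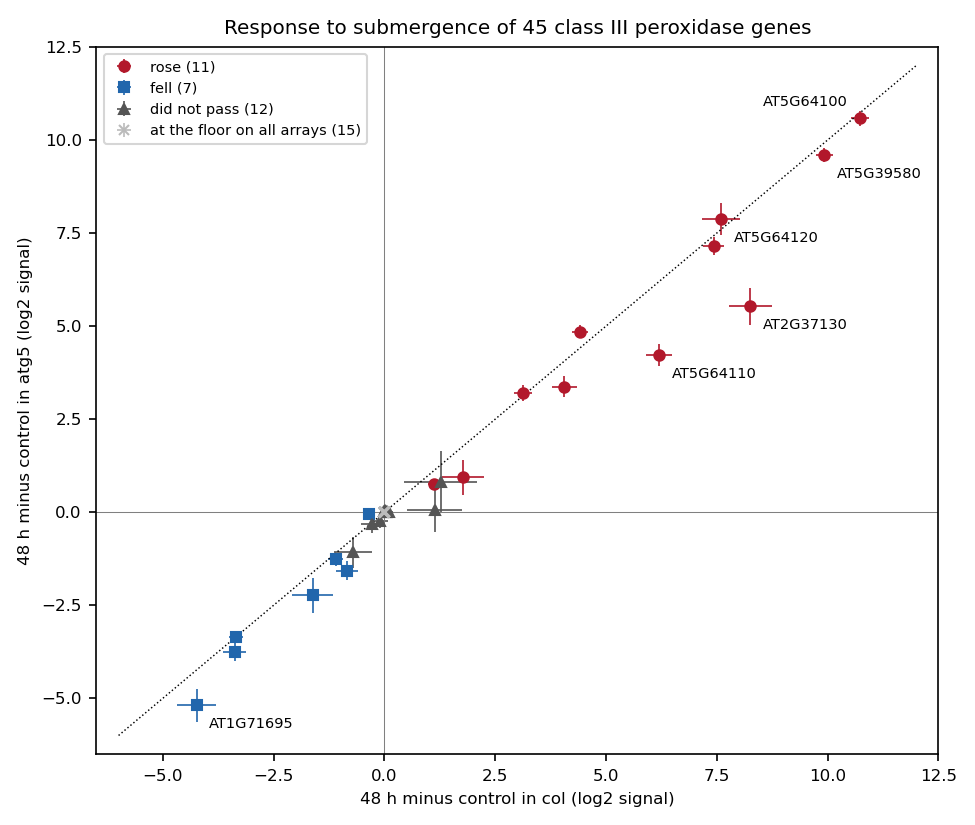
Difference between submerged and control plants in atg5 (vertical axis, log2 signal) against the same difference in col (horizontal axis, log2 signal) for 45 class III peroxidase genes, with SE bars and a dotted line of equal response. Of the risen genes, AT2G37130 and AT5G64110 lie farthest below the line, and the 15 floor genes lie on the origin.

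The steepest rises belonged to genes at or close to the floor in control leaves. AT5G64100 and AT5G39580 are both known from root hair growth in the cold. AT5G64100 read 13.23, 12.95 and 13.08 in submerged atg5 against 2.55, 2.55 and 2.39 in control atg5. In col it read 13.63, 13.89 and 13.61 in submerged plants against 2.55, 2.89 and 3.46 in control plants. The difference was 10.58 ± 0.20 in atg5 (1540-fold, adjusted p = 4.42e-09) and 10.74 ± 0.20 in col (1710-fold, adjusted p = 3.9e-09), which ranked 3rd and 1st among the rises of all 13356 genes. AT5G39580 read 12.16, 11.37 and 12.03 in submerged atg5 against 2.26, 2.20 and 2.29 in control atg5. In col its signals were 12.34, 12.36 and 11.95 in submerged plants against 2.35, 2.26 and 2.26 in control plants. It rose by 9.60 ± 0.19 in atg5 (adjusted p = 5.84e-09) and by 9.93 ± 0.19 in col (adjusted p = 4.61e-09), ranks 7 and 4 among all genes. Submerged and control arrays of these genes were far apart, with a gap of over 9 log2 units between the closest arrays of each pair of groups.

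AT5G64100 opens a run of 3 peroxidase genes that are direct neighbours in the RefSeq annotation (TAIR10.1), followed by AT5G64110 and AT5G64120. All 3 rose in both genotypes, by different amounts and from different starting points. AT5G64120, which RefSeq also names PRX71 and which restrains cell expansion and strengthens walls, had a clear signal before submergence. It read 14.54, 14.59 and 14.47 in submerged atg5 against 7.08, 6.25 and 6.66 in control atg5. In submerged col it read 14.63, 14.65 and 14.55 against 5.90, 7.36 and 7.78 in control col. It rose by 7.87 ± 0.43 in atg5 (adjusted p = 1.16e-06) and by 7.60 ± 0.43 in col (adjusted p = 1.18e-06). Its 6 submerged readings lay close together, between 14.47 and 14.65, while the highest signal of any probe set was 14.83 to 15.09 on the 12 arrays. AT5G64110 lay at the floor on all 6 control arrays, between 2.20 and 2.23. Its signals were 6.30, 6.19 and 6.81 in submerged atg5, and 8.20, 9.14 and 7.91 in submerged col. It thus rose by at least 4.22 in atg5 (SE 0.29, adjusted p = 3.82e-06) and by at least 6.20 in col (SE 0.29, adjusted p = 4.3e-07). Whether the probes of these neighbours also bind RNA of one another was not tested.

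A second neighbouring pair, Prx37 (AT4G08770) and AT4G08780, rose together as well. Plants that overproduce Prx37 are known to stay small and to carry more phenolics in their walls. Prx37 read 9.70, 9.09 and 10.08 in submerged atg5 against 2.30, 2.72 and 2.41 in control atg5, and 9.90, 10.35 and 10.27 in submerged col against 2.74, 2.59 and 2.89 in control col. AT4G08780 read 5.75, 5.68 and 5.26 in submerged atg5 against 2.20, 2.53 and 2.31 in control atg5, and 5.18, 5.21 and 5.93 in submerged col against 2.31 on each array of control col. Prx37 rose by 7.15 ± 0.24 in atg5 (adjusted p = 9.37e-08) and by 7.43 ± 0.24 in col (adjusted p = 7.67e-08). AT4G08780 rose by 3.21 ± 0.21 in atg5 (adjusted p = 2.93e-06) and by 3.13 ± 0.21 in col (adjusted p = 3.14e-06). The log2 rise of Prx37 was thus larger than that of its neighbour by 3.93 in atg5 and by 4.31 in col. The control signals of both genes lay near the floor, which limits their rises, so these differences are not exact sizes. Other neighbours parted. AT5G19890 rose in col while AT5G19880 stayed at the floor on all arrays, and AT5G58390 had a signal in controls while AT5G58400 stayed at the floor.

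Among the other risen genes, AT2G37130 showed the widest gap between genotypes. It read 9.25, 10.64 and 10.00 in submerged atg5 against 5.13, 4.54 and 3.62 in control atg5. In col it read 11.37, 11.37 and 11.62 in submerged plants against 3.83, 3.25 and 2.50 in control plants. The rise was 5.53 ± 0.49 in atg5 (adjusted p = 2.01e-05) and 8.26 ± 0.49 in col (adjusted p = 1.67e-06), which ranked 111th and 19th among all genes. AT4G33420, which is linked to lignification of water-conducting vessels, read 7.19, 6.86 and 7.29 in submerged atg5 and 6.28, 7.03 and 6.77 in submerged col, while its 6 control arrays lay between 2.24 and 2.30. It rose by 4.85 ± 0.18 in atg5 (adjusted p = 1.32e-07) and by 4.42 ± 0.18 in col (adjusted p = 1.98e-07). AT4G36430 read 6.40, 6.38 and 5.75 in submerged atg5 against 2.81, 2.83 and 2.77 in control atg5, and 7.47, 6.75 and 7.18 in submerged col against 2.83, 3.63 and 2.77 in control col. It rose by 3.37 ± 0.28 in atg5 (adjusted p = 1.36e-05) and by 4.06 ± 0.28 in col (adjusted p = 3.85e-06).

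The weakest rises stayed close to the floor. AT5G19890 read 2.34 on all 6 control arrays, 2.36, 3.10 and 4.37 in submerged atg5 and 3.91, 4.81 and 3.64 in submerged col. The value of 2.34 is the lowest this probe set reached and gives only an upper limit. The difference was at least 0.94 in atg5 (SE 0.47, adjusted p = 0.168), and the gene rose by at least 1.78 in col (SE 0.47, adjusted p = 0.0131), a call that array weights ended (adjusted p = 0.0521). The responses did not pass a test of their difference (-0.84 ± 0.66, adjusted p = 0.759). AT1G49570 lay at the floor on all control arrays and between 2.73 and 3.52 on the 6 submerged arrays. It rose by at least 0.75 in atg5 (adjusted p = 0.00136) and by at least 1.11 in col (adjusted p = 0.000108). Its call in atg5 ended when a difference of at least 1 was required. Across the 11 risen genes, 15 of 66 control readings and 0 of 66 submerged readings lay at the floor. No reading of AT5G19890 counts as at the floor here. Of its readings, 6 in controls and 1 after submergence lay within 0.05 of its own lowest value. Where control signals lay at or near the floor, the size of a rise is limited by it.

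**Figure D2:**
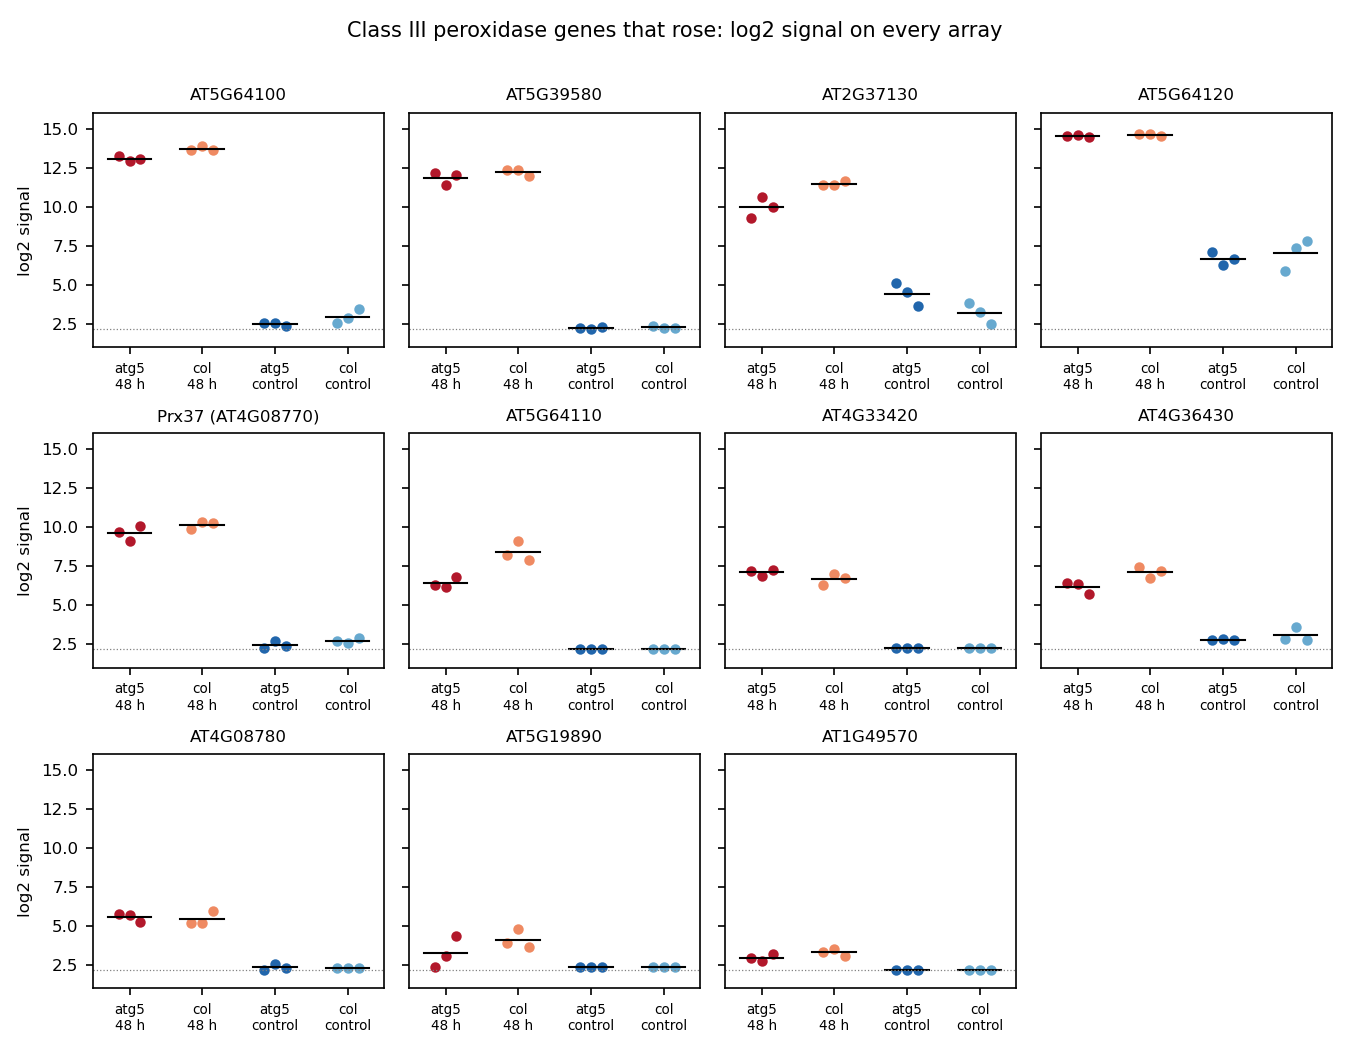
Log2 signal (vertical axis) of the 11 risen peroxidase genes on each of 3 arrays per group, with a bar at the group mean and a dotted line at the floor of 2.20. AT5G64120 alone has all control readings at 5.90 or above. AT5G64110, AT2G37130, AT4G36430 and AT5G64100 show lower submerged signals in atg5 than in col with no overlap, and only AT5G64110 passed. These are 4 of the 45 genes (8.89%), beside 16.2% of all genes.

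The genes that fell had signal in control leaves, and they fell by less than the leading genes rose. AT1G71695 fell most. It read 4.73, 5.60 and 5.19 in submerged atg5 against 10.21, 10.50 and 10.37 in control atg5. In submerged col it read 6.15, 5.33 and 7.25 against 10.19, 10.78 and 10.47 in control col. The difference was -5.19 ± 0.44 in atg5 (adjusted p = 1.5e-05) and -4.24 ± 0.44 in col (adjusted p = 4.68e-05), ranks 71 and 175 among the falls of all genes. AT5G51890, like AT4G33420 linked to lignification of vessels but moving the other way, read 2.51, 2.58 and 2.20 in submerged atg5 against 6.20, 6.69 and 5.66 in control atg5. In submerged col it read 2.46, 2.36 and 2.26 against 5.84, 5.35 and 6.04 in control col. It fell by 3.75 on the log2 scale in atg5 (SE 0.26, adjusted p = 4.79e-06) and it fell by 3.38 in col (SE 0.26, adjusted p = 8.17e-06). AT5G40150 read 2.55, 2.36 and 2.31 in submerged atg5 against 5.62, 5.78 and 5.86 in control atg5, and 2.59, 2.59 and 2.55 in submerged col against 5.79, 6.29 and 5.69 in control col. Its difference was -3.35 ± 0.15 in both genotypes (adjusted p = 3.8e-07 in atg5 and 3.31e-07 in col). The submerged signals of the last 2 genes end near the floor, so the size of their falls is limited by it.

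PRXR1 (AT4G21960) had a high signal in every group and fell moderately. It read 10.41, 12.06 and 11.33 in submerged atg5 against 13.56, 13.53 and 13.39 in control atg5, and 11.86, 10.91 and 12.54 in submerged col against 13.33, 13.58 and 13.24 in control col. It fell by 2.23 (SE 0.47, adjusted p = 0.00397) in atg5 and it fell by 1.62 (SE 0.47, adjusted p = 0.0204) in col. The call in col ended without col control replicate 2 (adjusted p = 0.0643), without col 48 h replicate 2 (0.0656) and with the arrays of col alone (0.0566). AT3G28200 read 6.33, 5.30 and 5.58 in submerged atg5 against 7.28, 7.27 and 7.37 in control atg5, and 6.30, 6.31 and 6.47 in submerged col against 6.87, 7.40 and 7.32 in control col. It fell by 1.57 (SE 0.25, adjusted p = 0.000697) in atg5 and it fell by 0.84 (SE 0.25, adjusted p = 0.0215) in col. Its call in col ended when any of 4 arrays was left out, namely col control replicate 2 (adjusted p = 0.0758), col control replicate 3 (0.0679), col 48 h replicate 1 (0.0618) and col 48 h replicate 2 (0.062), and also when a difference of at least 1 was required.

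AT2G34060 read 2.96, 3.30 and 2.97 in submerged atg5 against 4.07, 4.41 and 4.58 in control atg5, and 3.33, 2.96 and 2.75 in submerged col against 4.10, 4.14 and 4.11 in control col. It fell by 1.27 (SE 0.17, adjusted p = 0.000293) in atg5 and it fell by 1.10 (SE 0.17, adjusted p = 0.000656) in col. AT2G22420 moved least of the fallen genes. It read 2.51, 2.48 and 2.50 in submerged atg5 against 2.62, 2.50 and 2.50 in control atg5, and 2.22, 2.20 and 2.48 in submerged col against 2.70, 2.72 and 2.50 in control col. Its difference was -0.04 ± 0.083 in atg5 (adjusted p = 0.876) and -0.34 ± 0.083 in col (adjusted p = 0.00918). The call in col ended with quantile normalization (adjusted p = 0.0603), with median centring (0.203), with the arrays of col alone (0.0803) and when a difference of at least 1 was required, and the test of the difference between genotypes was not passed (0.29 ± 0.12, adjusted p = 0.374). For all other fallen genes the submerged and control arrays of a genotype did not overlap, in either genotype, but these genes were selected by a test on the same arrays. Of all 45 genes, the arrays of 19 (42.2%) did not overlap in atg5 and those of 19 (42.2%) in col. In atg5 the arrays of 48.8% of all genes did not overlap, and in col those of 46.7%.

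**Figure D3:**
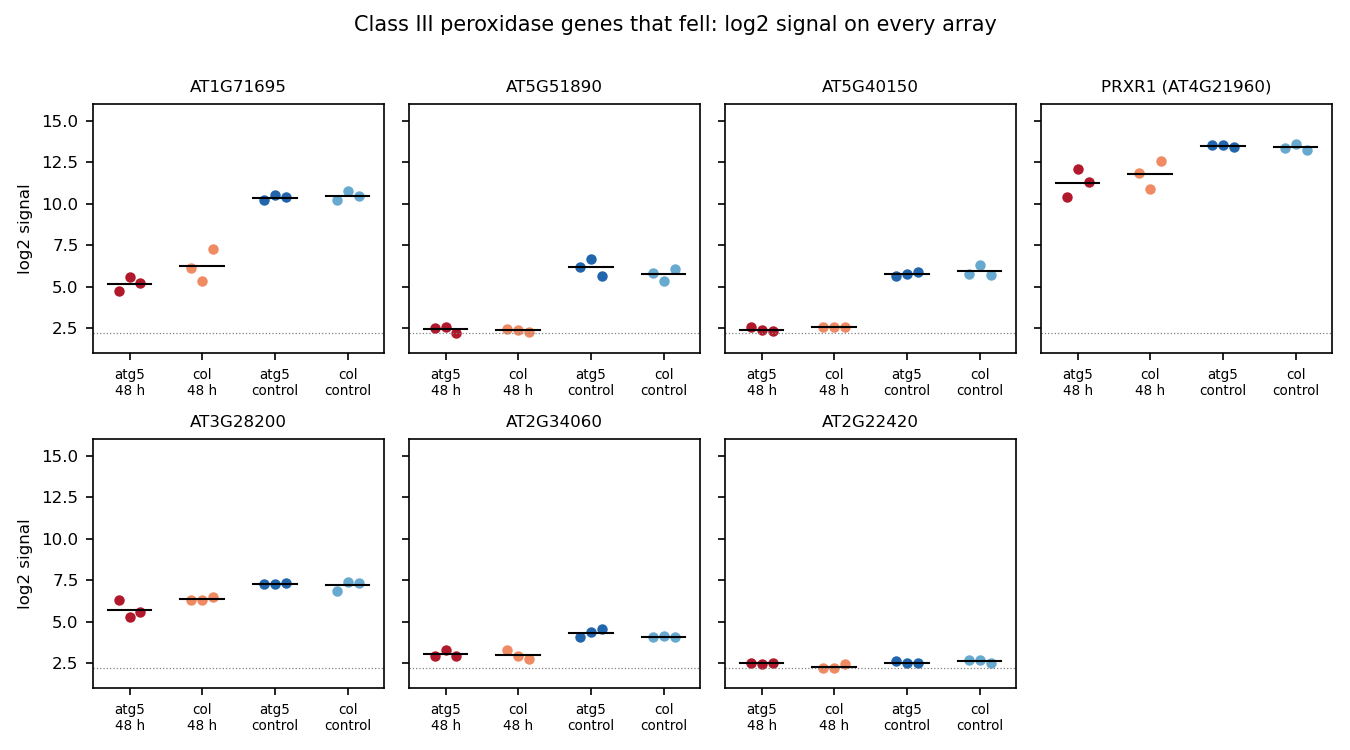
Log2 signal (vertical axis) of the 7 fallen peroxidase genes on each of 3 arrays per group, with a bar at the group mean and a dotted line at the floor of 2.20. AT5G51890 and AT5G40150 end close to the floor, whereas PRXR1 stays at 10.41 or above on every array.

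Of the 12 genes that passed in neither genotype, several were seen on single arrays. PRX52 (AT5G05340), which takes part in lignin formation in stems, lay at the floor on all control arrays and read 2.20, 2.20 and 2.40 in submerged atg5 and 2.72, 5.09 and 2.20 in submerged col. AT1G14550 was also at the floor in controls and read 2.97, 2.22 and 3.89 in submerged atg5 and 2.54, 5.69 and 2.22 in submerged col. Neither passed, with adjusted p of 1.0 in atg5 and 0.194 in col for PRX52 and of 0.557 in atg5 and 0.298 in col for AT1G14550 (limma). The highest reading of both came from col 48 h replicate 2. The same array gave the highest of the 3 submerged col readings for 8 of the 11 risen genes, against 1 for replicate 1 and 2 for replicate 3. Some margins were small, such as 12.36 against 12.34 for AT5G39580, and the share of all risen genes was not counted. The lowest reading came from col 48 h replicate 3 for 6 of the 11 genes, and from atg5 48 h replicate 2 for 6. In atg5 the highest submerged reading fell to replicates 1, 2 and 3 in 4, 2 and 5 of the 11 genes. AT5G58390 read 2.41, 2.42 and 2.41 in submerged atg5 against 4.35, 2.56 and 3.57 in control atg5, and 3.05, 2.41 and 3.26 in submerged col against 3.60, 4.02 and 3.24 in control col. It differed by -1.08 ± 0.42 in atg5 (adjusted p = 0.0774) and by -0.71 ± 0.42 in col (adjusted p = 0.246). In atg5 it passed without atg5 control replicate 2 (adjusted p = 0.00694). The value of 2.41 is the lowest this probe set reached and gives only an upper limit, so both differences may be understated. AT4G11290 and AT5G15180 had readings of up to 3.14 and 2.96 in controls and lay at the floor on every submerged array. The other 7 of the 12 were AT2G41480 (PRX25), AT3G50990 (PER36), AT4G31760, AT5G17820, AT1G30870, AT3G21770 and AT5G06730. They never exceeded 2.69 on any array.

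**Figure D4:**
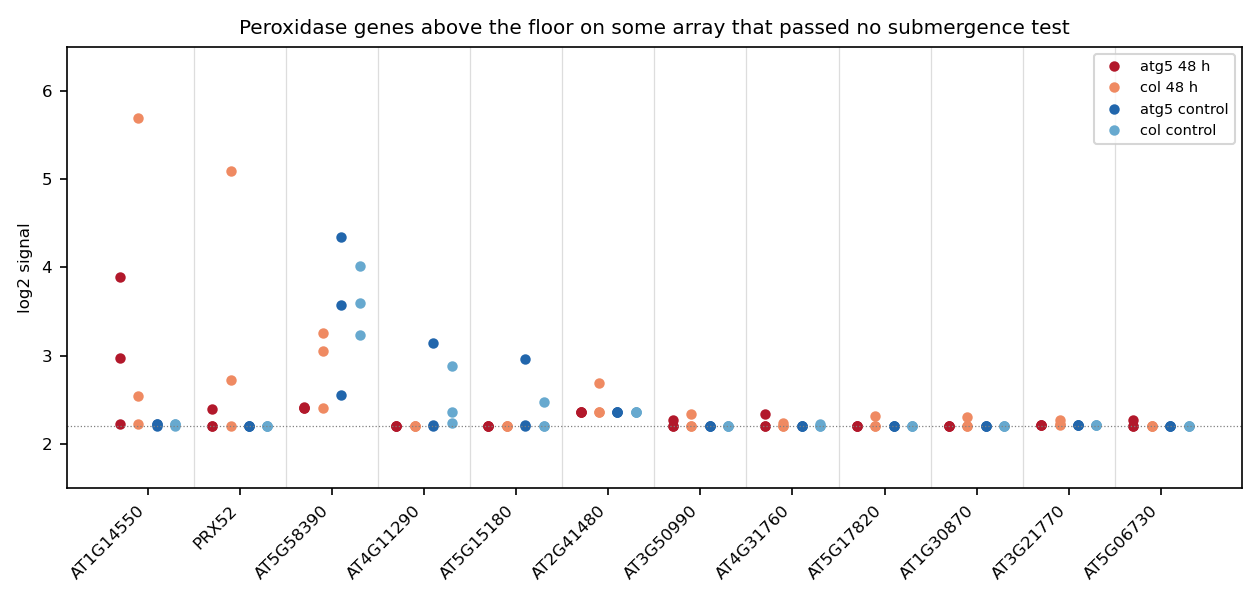
Log2 signal (vertical axis) on each array of the 12 peroxidase genes that passed no submergence test and were above the floor on at least 1 array, with colours for the 4 groups and a dotted line at the floor of 2.20. AT1G14550 and PRX52 each have 1 reading above 5 from a submerged col array, with their 6 control readings at the floor.

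The 15 genes at the floor on all 12 arrays were AT1G24110, AT1G44970, AT1G68850, AT2G18980, AT2G24800, AT2G35380, AT3G01190, AT4G17690, AT4G25980, AT4G30170, AT5G14130, AT5G19880, AT5G47000, AT5G58400 and AT5G66390. The last of these is PRX72, known for its part in lignin formation in stems. These genes could show no fall, and a rise would have been seen only above the floor.

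Without submergence, none of the 45 genes passed between atg5 and col by limma. Of all genes 2.34% passed, 1.37% higher and 0.973% lower in atg5. At an unadjusted p under 0.05 there were 2 of the 45. The share of all genes at that threshold was not counted, so this number does not set the family apart. AT2G37130 was 1.24 ± 0.49 higher in atg5 (95% interval 0.12 to 2.36, adjusted p = 0.30), with overlapping arrays. AT5G64100 differed by -0.47 ± 0.20 (95% interval -0.93 to 0.00, adjusted p = 0.355). Of the 11 genes that rise under water, 6 had a genotype difference between -0.04 and 0.04 in control, and these lie at or near the floor there.

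After 48 h under water, AT5G64110 alone passed, as lower in atg5, which is 2.22% of the 45 genes. Of all genes 3.42% passed, 1.84% higher and 1.58% lower in atg5. At an unadjusted p under 0.05 there were 9 of the 45. The share of all genes at that threshold was not counted, so this number cannot be read as a trait of the family. AT5G64110 averaged 6.43 ± 0.33 in submerged atg5 and 8.42 ± 0.64 in submerged col (SD, n = 3 each). The difference was -1.99 ± 0.29 (adjusted p = 0.0126 in limma), which is 3.96-fold lower in atg5, and the arrays did not overlap. The call ended with the 6 submerged arrays alone in the model (adjusted p = 0.176). Both control groups lay at the floor with an SD of 0.0161, which lowers the pooled SE below what the submerged arrays alone would give. Arrays of AT2G37130, AT4G36430 and AT5G64100 did not overlap between submerged atg5 and submerged col either, yet none of these genes passed. With AT5G64110 these are 4 of the 45 genes (8.89%), whereas arrays of 16.2% of all genes did not overlap in this comparison. AT2G37130 differed by -1.49 ± 0.49 (adjusted p = 0.165), AT4G36430 by -0.96 ± 0.28 (adjusted p = 0.119) and AT5G64100 by -0.63 ± 0.20 (adjusted p = 0.16). AT4G36430 passed when dim genes were left out of the fit and the adjustment (adjusted p = 0.0411). AT5G64100 passed without col control replicate 3 (adjusted p = 0.0456). Among the fallen genes AT1G71695 differed by -1.07 ± 0.44 (adjusted p = 0.282) and AT3G28200 by -0.62 ± 0.25 (adjusted p = 0.259), and AT3G28200 passed without atg5 48 h replicate 1 (adjusted p = 0.0438). In all, 9 of the 11 risen genes were lower in submerged atg5 than in submerged col, with a median of -0.55. Of all 2999 genes risen by the same rule, 46.8% were lower, with a median of 0.03. Of the 7 fallen genes, 4 were lower in submerged atg5, beside 55.3% of all fallen genes. The classes were selected on these same arrays, AT5G19890 and AT2G22420 through col alone, and these shares were not tested.

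**Figure D5:**
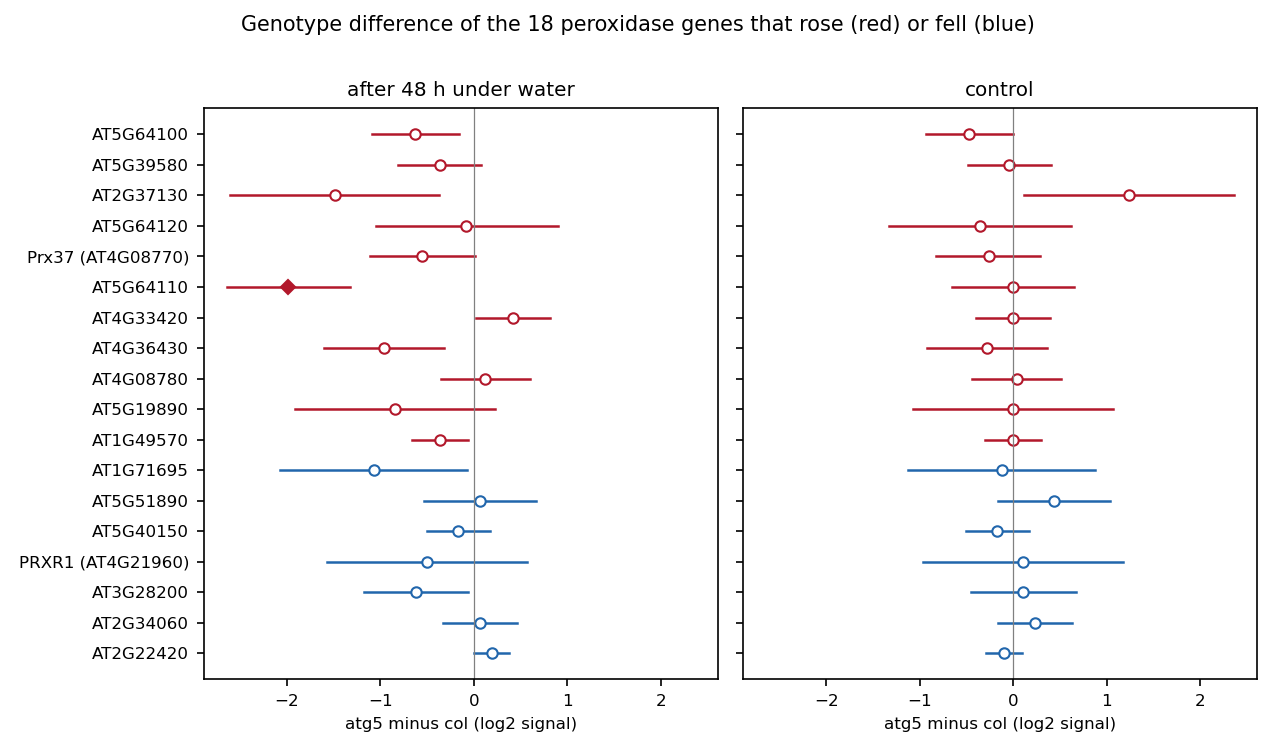
Difference between atg5 and col (horizontal axis, log2 signal) with its 95% interval for the 11 risen (red) and 7 fallen (blue) peroxidase genes, in submerged plants on the left and in control plants on the right. The filled diamond marks AT5G64110, the gene that passed, and open circles mark genes that did not pass.

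The interaction tests whether the responses of the genotypes differ, and none of the 45 genes passed it by limma. Of all genes 0.599% passed, 0.337% above and 0.262% below 0. At an unadjusted p under 0.05 there were 3 of the 45. The share of all genes at that threshold was not counted, so nothing about the family follows from this number. AT2G37130 had the largest estimate, -2.73 ± 0.69 (95% interval -4.31 to -1.15, adjusted p = 0.135), which combines a higher control and a lower submerged signal in atg5. AT5G64110 followed with -1.99 ± 0.40 (95% interval -2.91 to -1.06, adjusted p = 0.0794). Its control arrays lay at the floor in both genotypes, so this estimate repeats its difference at 48 h and is limited by the floor. Of the 11 risen genes, 8 had an interaction below 0 (median -0.33), beside 64% of all 2999 risen genes (median -0.16). Of the 7 fallen genes, 6 had an interaction below 0, beside 44.3% of all fallen genes. Both classes were selected on the same arrays, and these shares were not tested. For risen genes with control signals at or near the floor, the interaction largely repeats the difference at 48 h. With dim genes left out, AT2G37130 and AT5G64110 both passed (adjusted p = 0.0411 and 0.0241). AT5G64110 also passed without col 48 h replicate 2 (-1.63, adjusted p = 0.0308) and without col 48 h replicate 3 (-2.24, adjusted p = 0.0382). For the 2 neighbours of AT5G64110 the estimates were small, -0.16 for AT5G64100 (95% interval -0.81 to 0.50) and 0.27 for AT5G64120 (95% interval -1.11 to 1.65). The submerged readings of AT5G64120 lay close to the highest signal of the arrays, and whether this limited its estimate was not tested. The difference for AT5G40150 was 0.00 (95% interval -0.47 to 0.47). These intervals leave room for differences of up to the size of their ends.

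Few genes of the pathways that work with these enzymes were measured. NADPH oxidases of the plasma membrane make the superoxide from which wall hydrogen peroxide forms, and 3 of 10 were measured. In atg5 1 of the 3 rose and 0 fell, and in col 2 rose and 0 fell. AT4G25090 rose by 2.85 ± 0.32 in atg5 (adjusted p = 8.55e-05) and by 3.09 ± 0.32 in col (adjusted p = 4.63e-05). AT1G19230 differed by 0.56 ± 0.24 in atg5 (adjusted p = 0.0988) and rose by 1.19 ± 0.24 in col (adjusted p = 0.00284), and AT4G11230 lay at the floor throughout. Of 19 enzymes that remove peroxide inside the cell, the chloroplast ascorbate peroxidases TAPX (AT1G77490) and SAPX (AT4G08390) were measured. TAPX fell by 3.16 in atg5 (SE 0.31, adjusted p = 3.67e-05) and it fell by 3.84 in col (SE 0.31, adjusted p = 9.76e-06). SAPX rose by 0.81 ± 0.19 in atg5 (adjusted p = 0.00782) and differed by -0.22 ± 0.19 in col (adjusted p = 0.435). In controls SAPX was lower in atg5 than in col (-1.67 ± 0.19, adjusted p = 0.00627). Of 19 monolignol synthesis genes, which supply the phenolics that wall peroxidases couple, HCT (AT5G48930) and CCR2 (AT1G80820) were measured. HCT differed by 0.06 ± 0.099 in atg5 (adjusted p = 0.803) and rose by 0.39 ± 0.099 in col (adjusted p = 0.0102), while CCR2 stayed near the floor. The only laccase measured of 17, LAC16 (AT5G58910), did not pass, and no superoxide dismutase or Casparian strip gene of the lists was measured.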

How the data were processed

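The deposited table holds log2 signals of 22810 probe sets on 12 arrays. Per the submitters' processing notes MAS5 and GCRMA were used by the authors, without version, role or order. The log2 scale, background correction and normalization between arrays were read from the values. No detection calls or scan dates come with them. Of 22746 probe sets that are not controls, 13513 are assigned to 1 gene, 503 to several and 8730 to none. The brightest probe set stood for a gene with several, but each family member had 1. Symbols and neighbours come from RefSeq (TAIR10.1).

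Limma 3.58.1 (R 4.3.3) fitted 1 mean per group to all 12 arrays, with 8 residual and 0.488 prior degrees of freedom. Tests are two-sided. The number of arrays limits the precision. The labels call the replicates biological. No pairing by replicate number was seen: deviations of same-numbered arrays correlated between -0.476 and 0.103. Differently numbered arrays of submerged atg5 and submerged col correlated between -0.177 and 0.355. A factor shared by submerged arrays across the numbers was not tested.

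Members and lists were chosen with earlier results of these data known. Values on every array go to the 10 largest rises, the 10 largest falls among genes that passed, genes that passed a genotype test and neighbours. AT1G49570, PRX52, AT1G14550, AT4G11290 and AT5G15180 were named after their values were seen. Sequences were not used here. Alternatives were quantile normalization, median centring, a test without dim genes (the lower 40% by mean signal), the mean over probe sets, the replicate number as a block, trended or robust priors, array weights, only the groups compared, a difference of at least 1, leaving out each array and, chosen after seeing the data, all probe sets in the fit.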

Additional observations from a re-analysis of the deposited data

Results flagged for a closer look

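The probe set shared by the neighbouring peroxidase genes AT4G37520 and AT4G37530, which was left out of the counts because it cannot be assigned to either, carried a signal that was higher on every submerged array than on any control array, by 7.55 on average. It read 12.79, 12.68 and 12.82 in submerged atg5 against 6.13, 5.86 and 5.86 in control atg5, and 13.28, 13.24 and 13.21 in submerged col against 4.80, 4.71 and 5.38 in control col. In a limma fit over all 22746 probe sets it rose by 6.81 ± 0.16 in atg5 (adjusted p = 1.06e-08) and by 8.28 ± 0.16 in col (adjusted p = 3.4e-09). The same fit gave an interaction of -1.47 ± 0.23 (adjusted p = 0.0346), with a difference between atg5 and col of 0.99 ± 0.16 in control (adjusted p = 0.0195) and of -0.48 ± 0.16 after submergence (adjusted p = 0.157).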

How the results depend on the processing

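None of the 49 differences of single genes with an unadjusted p under 0.05 changed sign under any alternative run. Of 35 calls of single genes, 29 were kept under all alternatives, and the 6 that were lost under at least 1 are given above with their genes. The risen count became 33 in atg5 and 28 in col with median centring. With 1 array left out, 10 to 11 genes rose and 6 to 7 fell in atg5, and 11 to 13 rose and 5 to 7 fell in col. Calls between submerged atg5 and submerged col numbered 2 without dim genes, 0 with only the groups compared, and 1 to 2 with 1 array left out (2 without col control replicate 3 and without atg5 48 h replicate 1). For the interaction they numbered 2 without dim genes and 0 to 1 with 1 array left out (1 without col 48 h replicate 2 or 3). No call was made between control atg5 and control col under any alternative. With the replicate number as a block the counts stayed at 10 risen and 6 fallen in atg5, 11 and 7 in col, and 0, 1 and 0 for control, 48 h and interaction. The cause of these shifts was not tested, except that centring moves floor genes by construction. The floor limits what low genes can show.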

Other observations

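The other shared peroxidase probe sets showed little signal. That of AT2G18140 and AT2G18150 read 2.21 on each submerged atg5 array against 2.21, 2.51 and 2.20 in control atg5, and 2.63, 2.21 and 2.21 in submerged col against 2.79, 2.25 and 2.21 in control col, and passed no test (adjusted p = 0.789 in atg5 and 0.889 in col). That of AT2G38380 and AT2G38390 lay at the floor on all 12 arrays.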
